A study of Mus musculus with 12 samples.

Results

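The Wnt ligands of the mouse posterior neural tube are described here across 6 consecutive pieces of the tube. The members were 10 genes listed by symbol, namely Wnt1, Wnt3, Wnt3a, Wnt4, Wnt5a, Wnt5b, Wnt6, Wnt7a, Wnt7b and Wnt8a, each represented by every probe set whose annotation names that gene and no other. All 10 were on the array, with 19 of the 34945 probe sets that name a single gene, and 9 of them were among the 12089 genes tested. Tissue came from CD1 mouse embryos at embryonic day 9.5, an outbred strain, after a pancreatin digestion that loosens tissue layers. Each piece, numbered part 1 to part 6, was hybridised on 2 arrays, 1 from each of 2 embryos, for 12 arrays in all. The titles number the arrays of a piece as biological replicates 1 and 2, and these numbers were taken here to mark the embryo. The labels do not say which part number lies at the tail end.

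Wnt proteins are secreted, lipid-modified signals. The membrane enzyme Porcn attaches the lipid and the carrier Wls brings the protein to the cell surface, where it binds a Frizzled receptor together with a co-receptor. Ligands such as Wnt1 and Wnt3a are best known for stabilising beta-catenin, which then acts with Tcf/Lef factors on target genes, whereas Wnt5a is best known for signalling through Ror receptors and planar cell polarity. In the mouse embryo Wnt3a and Wnt5a are known from the tail growth zone, Wnt1 and Wnt3a from the dorsal midline of the neural tube, and Wnt6 from the surface ectoderm.

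Sequence upstream of the start sites is shown for 3 ligands with different courses along the tube, so that the window in front of each gene can be seen beside its values. Each is the 250 bases before a start site in RefSeq's table for GRCm38.p6, 5′ to 3′ on the gene's own strand, with matches to the motifs below in capitals. Windows for 7 of the 10 genes were searched. Wnt5a and Wnt7b had none in that table, and Wnt8a was left out of the search. Wnt3a lies on the minus strand at chr11:59290752-59291001. For Wnt5b, on the minus strand, the table gives 3 starts, and the window shown, chr6:119449387-119449636, is the one that held the most matches. Wnt1 lies on the plus strand at chr15:98789607-98789856.
Wnt3a: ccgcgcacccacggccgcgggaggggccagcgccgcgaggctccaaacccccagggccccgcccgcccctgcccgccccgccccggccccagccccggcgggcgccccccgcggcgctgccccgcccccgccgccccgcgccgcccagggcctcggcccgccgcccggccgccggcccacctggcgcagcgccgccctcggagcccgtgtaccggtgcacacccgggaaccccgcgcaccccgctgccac
Wnt5b: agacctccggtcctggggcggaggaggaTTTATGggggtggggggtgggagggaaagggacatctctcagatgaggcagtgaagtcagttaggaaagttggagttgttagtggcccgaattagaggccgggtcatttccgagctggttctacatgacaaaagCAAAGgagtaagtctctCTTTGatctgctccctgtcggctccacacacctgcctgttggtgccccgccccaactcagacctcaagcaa
Wnt1: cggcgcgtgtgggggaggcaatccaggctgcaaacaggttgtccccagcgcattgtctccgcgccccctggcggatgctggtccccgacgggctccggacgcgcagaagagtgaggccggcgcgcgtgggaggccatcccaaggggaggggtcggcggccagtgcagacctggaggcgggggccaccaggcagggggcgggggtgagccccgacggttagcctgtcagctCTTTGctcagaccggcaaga

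The 4 motifs searched, on both strands and none of which contains another, were the Tcf/Lef core CTTTG, the Cdx motif TTTATG, the T-box motif TCACACC and the retinoid receptor motif AGGTCA. The Tcf/Lef core was present in 48.6% of all 32851 windows of this length, the Cdx motif in 10.8%, the T-box motif in 3.33% and the retinoid motif in 14.0%. The Wnt3a window held no match to any of the 4 and was 87.6% G and C. The Wnt5b window held 2 Tcf/Lef cores and 1 Cdx motif, and was 55.6% G and C. Of the other Wnt5b windows, that at chr6:119544348-119544597 held 1 Tcf/Lef core and that at chr6:119467212-119467461 held none of the motifs. The Wnt1 window held 1 Tcf/Lef core. A match of this length is a description of the letters and not evidence of a bound site.

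The values are linear MAS5 signals, for which the median over all probe sets and arrays was 17.7, and a signal near or under that cannot be told from background here. Signals were compared as log2(signal + 4.43), and every log2 slope or difference below is on that scale, which understates the change of dim probe sets. Markers of neural progenitors, the labelled tissue, were dim in part 1 and bright in the later pieces. Their summed signal over 11 genes was 648 and 766 in part 1 and 7884 and 8236 in part 6, and 10 of 11 tested genes rose along the part number. Markers of the caudal growth zone, the progenitor region of the tail, ran the other way. They started at 10087 and 10243 and ended at 2493 and 2105, and 8 of 10 tested genes fell. A gene was tested when a probe set of it exceeded its array's median on at least 2 arrays. Olig2 and Nkx6-1 did so on 4 arrays each, all in parts 5 and 6, which favoured a rise. Fgf8 did so on 6, all in parts 1 to 3, which favoured a fall. The other genes that rose or fell in these 2 lists did so on 9 to 12 arrays. Markers of presomitic mesoderm and of surface ectoderm, both neighbouring tissues, were brightest in the first 2 pieces. The summed signal of 9 presomitic mesoderm genes was 6018 and 4246 in part 1 and 4170 and 2245 in part 2, against 369 to 707 in parts 3 to 6. That of 12 surface ectoderm genes was 1439 and 547 in part 1, 663 and 921 in part 2, and 306 to 505 in the later pieces. The lists of the other neighbouring tissues held 6 to 8 genes each. Their sums were 70 to 667 for notochord and floor plate and 52 to 467 for somite, both highest on replicate 1 of part 2. They were 50 to 157 for gut endoderm, 37 to 70 for lateral plate mesoderm and 36 to 63 for endothelium. Blood genes summed to between 54 and 9955, both in part 1, and 0 of 6 passed the slope test. In such pieces, fewer cells of a type and less RNA per cell cannot be told apart.

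The first comparison asked how each ligand changed along the part number. By limma's test of the slope, with p-values adjusted over all genes by the Benjamini-Hochberg method, 4 of 9 tested ligands fell, namely Wnt5b, Wnt3a, Wnt5a and Wnt6, against 7.05% of all genes that fell. Only Wnt1 rose, against 5.64% of all genes that rose. Wnt4, Wnt7a, Wnt7b and Wnt8a did not pass, and Wnt3 was too dim to be tested. By the F test among the 6 pieces, which asks for any difference between them, 4 ligands were called (Wnt1, Wnt3a, Wnt5a and Wnt5b), against 4.89% of all genes. Comparing the ends directly, Wnt5b, Wnt3a and Wnt5a were lower in part 6 than in part 1, against 4.86% of all genes, and Wnt1 was higher, against 4.14%.

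**Figure D1:**
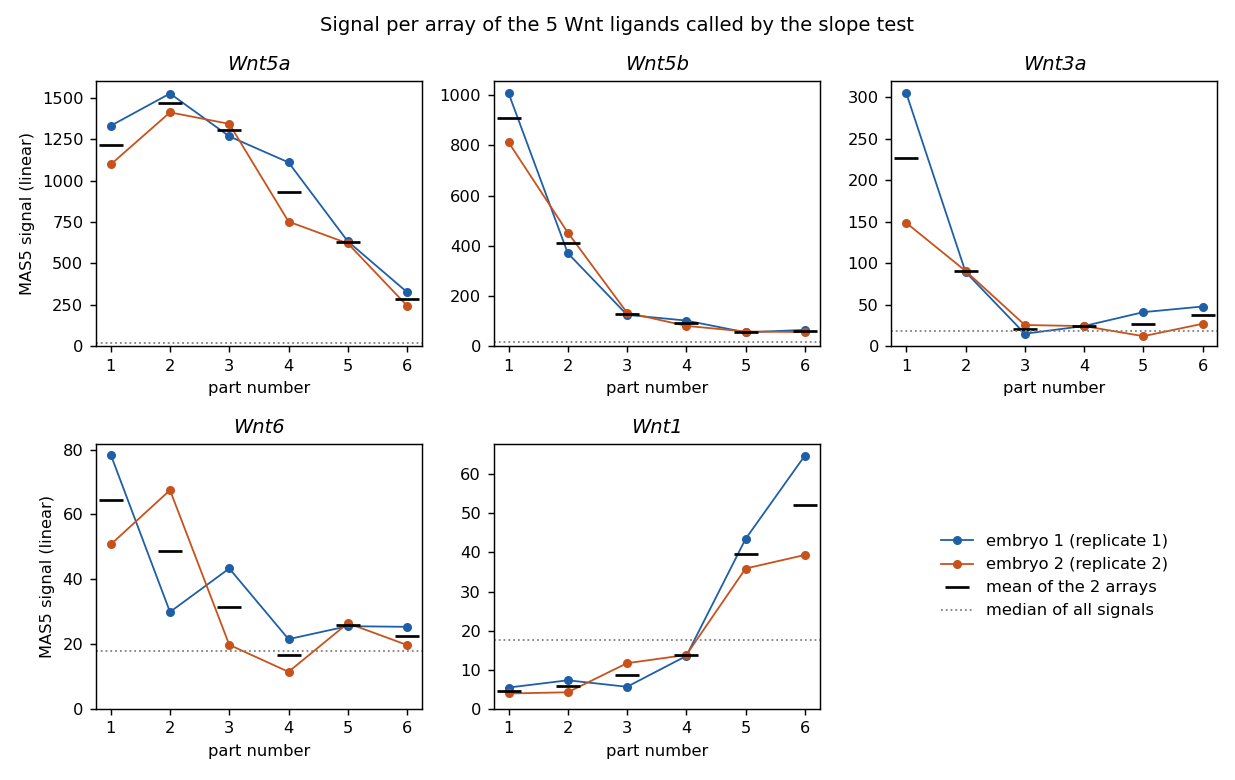
MAS5 signal (linear) by part number for the 5 Wnt ligands called by the slope test, 1 panel a gene; points and lines are the 2 embryos, black bars the mean of the 2 arrays and the dotted line the median of all signals, 17.7. Wnt5a lies between 1097 and 1526 through part 3 and is lowest in part 6, Wnt5b and Wnt3a drop between parts 1 and 3, and Wnt1 lies under the dotted line through part 4.

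Wnt5a had the course of a broad plateau that ended late. Its brightest probe set read 1331 and 1097 in part 1, 1526 and 1412 in part 2, and 1267 and 1342 in part 3. The later pieces read 1109 and 752 in part 4, 632 and 620 in part 5, and 326 and 244 in part 6. All arrays of parts 1 to 3 lay above those of parts 5 and 6, and part 4 overlapped part 1. The slope was -0.42 ± 0.070 log2 per part (SE, adjusted p = 0.00141), and part 6 minus part 1 was -2.08 ± 0.22 log2 (adjusted p = 0.000456). Ordered by mean, the pieces ran 2, 3, 1, 4, 5, 6, and in that order the arrays of parts 3 and 1 and those of parts 1 and 4 overlapped. At part 3 the mean had covered -5.3% of the log2 difference between the ends, that is, none of it. It had covered 19.3% at part 4 and 45.3% at part 5. In this probe set more of the difference lay between parts 5 and 6 than between any other neighbours, although that step did not pass (adjusted p = 0.329).

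The other 3 Wnt5a probe sets had the same direction. In the fit that tested every kept probe set they had slopes of -0.44 ± 0.057, -0.53 ± 0.072 and -0.32 ± 0.064 log2 per part, with adjusted p of 0.000312, 0.000422 and 0.00645. The brightest of these 3 averaged 369 ± 12 in part 1 and 85.7 ± 11 in part 6 (SD, n = 2), and the dimmest 82.5 ± 0.0907 and 27.5 ± 6.92. Where the fall was steepest differed between sets. The brightest of these 3 averaged 213, 130 and 85.7 in parts 4, 5 and 6, and the dimmest 74.0, 36.1 and 27.5. Both fell most from part 4 to part 5. The remaining set averaged 97.5, 70.25 and 28.4, and fell most from part 5 to part 6. All 4 probe sets therefore gave Wnt5a as lower toward part 6 in separate measurements on the same arrays, but not the same place of the steepest fall.

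Wnt5b, the closest relative of Wnt5a, ended earlier. Its brighter probe set read 1009 and 813 in part 1, 370 and 452 in part 2 and 124 and 133 in part 3. It then read 102 and 80.5 in part 4, 54.9 and 58.1 in part 5, and 64.5 and 56.1 in part 6. No arrays overlapped between parts 1, 2, 3 and 4, and parts 5 and 6 overlapped each other. The slope was -0.80 ± 0.081 log2 per part (adjusted p = 3.26e-05) and the difference between part 6 and part 1 was -3.82 ± 0.19 log2 (adjusted p = 6.69e-06). The mean had covered 29.8% of that difference at part 2 and 72.6% at part 3. This brighter set is of the kind that Affymetrix marks with _x_at because some of its probes may match other transcripts. The second, dimmer set, without that mark, averaged 482 ± 59.2 in part 1, 57.0 ± 11.3 in part 3 and 31.5 ± 2.17 in part 6, with a slope of -0.75 ± 0.095.

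The courses of the 2 genes bent in opposite ways. The curvature, the coefficient of the squared part number in a fit that also held the slope, was -0.15 ± 0.023 for Wnt5a (adjusted p = 0.00546) and 0.18 ± 0.026 for Wnt5b (adjusted p = 0.00416). For a falling gene, a negative value means a course that is flat first and steep later, and a positive one the reverse. Among all genes 0.943% were called with negative and 0.513% with positive curvature. Within each array, the log2 level of Wnt5b minus that of Wnt5a, set to 0 at the part 1 mean, was -1.62 and -1.22 in part 2 and -2.89 and -2.88 in part 3. It stayed there in part 4 (-2.98 and -2.74) and part 5 (-3.01 and -2.91), and was -1.85 and -1.62 in part 6. The arrays of part 6 thus lay above all those of parts 3 to 5 in this difference. From part 5 to part 6 the mean Wnt5a signal went from 626 to 285 and that of Wnt5b from 56.5 to 60.3. These values and the difference are from the brightest set of each gene, for Wnt5b the one marked _x_at. The dimmer Wnt5b set went from 36.8 to 31.5. The curvature calls of both genes, and that of Wnt3a below, were lost without both arrays of part 1 or without both of part 6.

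**Figure D2:**
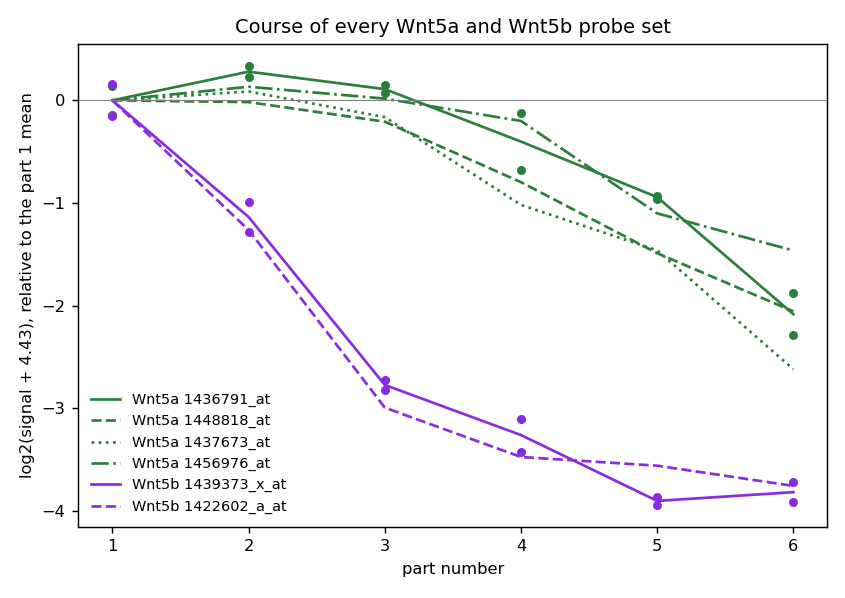
Course of the 4 Wnt5a and 2 Wnt5b probe sets, as log2(signal + 4.43) relative to each set's part 1 mean, by part number; lines are the means of 2 arrays and points are the single arrays of the set that represents each gene. Both Wnt5b sets are near -3 by part 3, where all Wnt5a sets are still near 0.

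Wnt5b was the ligand with a called step between neighbouring pieces. From part 2 to part 3 it fell by 1.64 ± 0.19 log2 (adjusted p = 0.0156), a step for which 0.19% of all genes were called in either direction. From part 1 to part 2 its difference was -1.14 ± 0.19 log2 (adjusted p = 0.0579), which did not pass, against 0.248% of all genes. None of the 9 ligands passed from part 3 to 4, from 4 to 5 or from 5 to 6, and for each of these steps 0.00827% of all genes did, that is 1 gene. By unadjusted p under 0.05, 3, 3, 2, 3 and 1 of 9 ligands were picked over the 5 steps in that order, against 10.8%, 5.01%, 3.23%, 3.64% and 3.81% of all genes. The step call of Wnt5b was lost on leaving out any 1 array of parts 2 or 3, with adjusted p up to 0.148.

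Wnt3a was high in the first 2 pieces. It read 305 and 149 in part 1 and 89.4 and 90.6 in part 2. It then read 14.9 and 25.4 in part 3, 24.2 and 24.1 in part 4, 40.9 and 11.9 in part 5, and 47.7 and 26.9 in part 6. Every array of parts 1 and 2 lay above every array of parts 3 to 6, and parts 1 and 2 did not overlap. The later 4 pieces were near the median of all signals. Neighbours among them, in order of mean (6, 5, 4, 3), overlapped. The F test called Wnt3a (adjusted p = 0.0174), and part 6 minus part 1 was -2.43 ± 0.49 log2 (adjusted p = 0.0143). The curvature was positive (0.29 ± 0.059, adjusted p = 0.0285) and the slope was -0.49 ± 0.14 (adjusted p = 0.0398).

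The Wnt3a calls rested on few arrays. Without replicate 1 of part 1, the F test gave an adjusted p of 0.0781, the difference between the ends one of 0.0690 and the slope one of 0.149. Without replicate 2 of part 6, the difference between the ends gave an adjusted p of 0.114. The curvature call was absent when any 1 of 5 arrays was removed, from parts 1, 3, 4 and 6, with an adjusted p of up to 0.0979, and with no filter (0.0539). The slope call did not survive the removal of any 1 of 8 arrays, among the 12. Over parts 3 to 6 alone, a choice made after the data were seen, the slope turned to 0.22 log2 per part and did not pass (adjusted p = 0.584). The presomitic mesoderm markers were also higher in parts 1 and 2. Of 8 tested genes of that list 4 fell and 0 rose, and the list's median slope was -0.48 against -0.01 over all genes. Tbx6, a transcription factor that defines presomitic mesoderm, averaged 353 in part 1, 153 in part 2 and 7.4 to 13.5 in the later pieces. It exceeded the median of its array on 4 arrays, all in parts 1 and 2, so that its entry into the test favoured a fall. Hes7, Dll3 and Rspo3, which also fell, exceeded it on 10, 12 and 12 arrays. Ripply2 was at or below the median of its array on every array. In part 1 the embryo with more of this marker signal also had more Wnt3a and more Wnt5b. Over the 6 pieces that order held in 2 for Wnt3a and in 1 for Wnt5b. With 2 arrays per piece such an order can arise from the spread of the arrays. In parts 3 to 6, moreover, Wnt3a and Tbx6 were near or under the median of all signals. Over parts 3 to 6 alone the slope of Wnt5b was -0.38 log2 per part (adjusted p = 0.0188) and that of Wnt5a -0.71 (adjusted p = 0.00191), while the marker sum, at 707 and 695 in part 3, was 430 and 454 by part 6. That sum mixed opposite courses in these pieces. Dll1, its brightest gene in part 6, averaged 36.8 in part 3 and 188 in part 6. Rspo3, of the same list, averaged 332 and 108. What part presomitic mesoderm has in the values of Wnt3a, Wnt5b and Wnt5a was not tested.

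Wnt6, dim in every piece, passed only by slope. It read 78.5 and 50.7 in part 1, 29.9 and 67.5 in part 2, 43.3 and 19.7 in part 3, 21.5 and 11.4 in part 4, 25.5 and 26.4 in part 5, and 25.3 and 19.7 in part 6. Both arrays of part 1 lay above those of parts 3 to 6 and overlapped part 2. The slope was -0.27 ± 0.081 log2 per part (adjusted p = 0.0416), while the F test (adjusted p = 0.217) and the ends (-1.34 ± 0.43, adjusted p = 0.0891) did not pass. That call was absent when any 1 of 8 arrays was removed, with an adjusted p of up to 0.147, and under 8 of 12 other settings. A second Wnt6 set, which exceeded the median of its array on 1 array, was at 37.1 and 0.56 in part 1.

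The summed surface ectoderm signal was also lower in the later pieces. Of 10 tested genes of that list 7 fell and 0 rose, with a median slope of -0.38. Its epithelial cadherin Cdh1 averaged 66.3 in part 1, 36.9 in part 2 and 1.4 to 9.0 in the later pieces. Cdh1 exceeded the median of its array on 3 arrays, all in parts 1 and 2, so that its entry into the test favoured a fall. Krt19 and Cldn6, which also fell, exceeded it on 5 and 6 arrays, mostly in parts 1 and 2. Krt8, Krt18, Epcam and Grhl3, the others that fell, did so on 10 to 12 arrays. The keratin Krt14 was never above the median of its array. Of the 3 tested genes that did not pass, named after their values were seen, Tfap2c averaged 124 in part 1 and 247 in part 6 (slope 0.33 ± 0.10, adjusted p = 0.0534), Grhl2 had a slope of 0.00 ± 0.049 and Krt5 one of -0.08 ± 0.060. In parts 1, 2 and 3 the embryo with the higher sum of these markers was also the one with more Wnt6, and in parts 4, 5 and 6 it was not. In those 3 later pieces the largest share of the sum came from Tfap2c, at means of 129, 168 and 247. The part of surface ectoderm in the Wnt6 result was not tested.

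**Figure D3:**
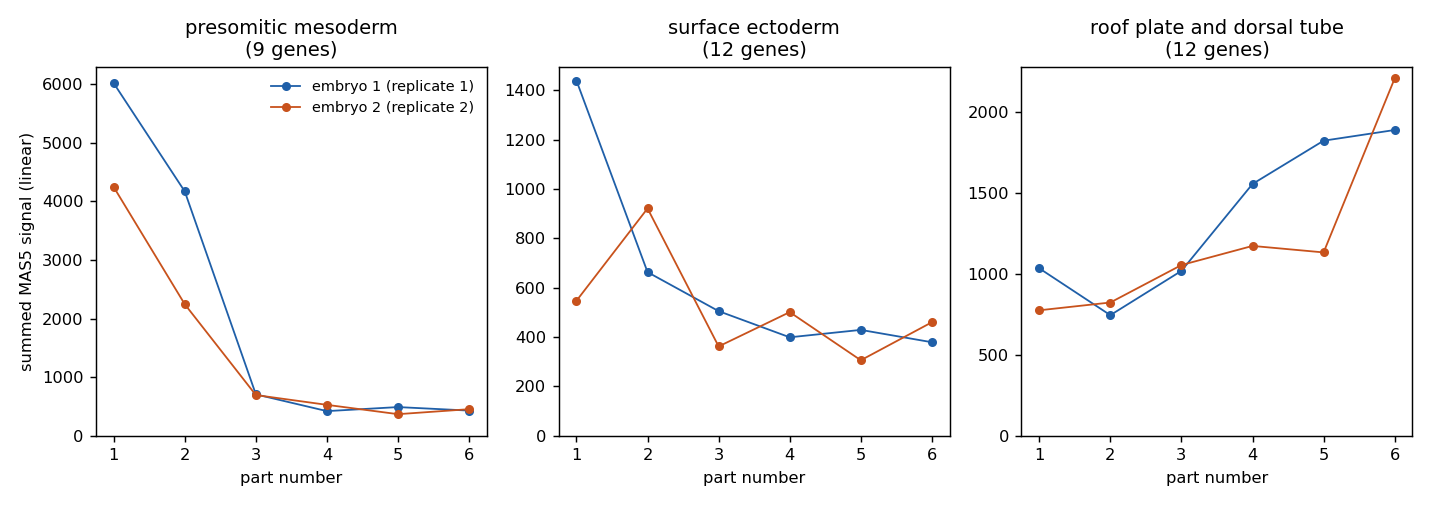
Summed MAS5 signal (linear) of the presomitic mesoderm, surface ectoderm and dorsal marker lists by part number, 1 line for each embryo. Presomitic mesoderm signal is at 2245 to 6018 in parts 1 and 2 and at 369 to 707 afterwards, and dorsal marker signal is highest in part 6 in both embryos.

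Wnt1 ran the other way. It read 5.43 and 3.92 in part 1, 7.29 and 4.22 in part 2, 5.63 and 11.7 in part 3, and 13.5 and 13.8 in part 4, all below the median of their arrays. In part 5 it read 43.5 and 35.9 and in part 6 64.8 and 39.4. The arrays of parts 5 and 6 overlapped each other and lay above all 8 earlier arrays. The slope was 0.57 ± 0.061 log2 per part (adjusted p = 4.56e-05) and part 6 exceeded part 1 by 2.60 ± 0.29 log2 (adjusted p = 0.000545). From part 4 to part 5 the difference was 1.28 ± 0.29 log2, which did not pass as a step (adjusted p = 0.477).

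Wnt1 passed the filter on low signals only through the 4 arrays of parts 5 and 6, where it was high, so that its entry into the test favoured a difference. With no filter its slope remained called (adjusted p = 0.000102), and with the stricter filter at the 75th percentile it was not tested. The 8 low arrays carry no order among themselves, and the size of the difference against them depends on the offset. Part 6 minus part 1 was 3.20 log2 with an offset of 1 and 1.62 with one equal to the median signal, and the call held with both. Of 10 tested genes of the dorsal marker list 4 rose and 0 fell, with a median slope of 0.15. Of those that rose, Zic1 exceeded the median of its array on 4 arrays and Bmp6 on 3, all in parts 5 and 6. Their entry into the test favoured a rise, as that of Wnt1 did. Olig3, also called as rising, averaged 217 in part 4 and 75.7 in part 6. The list's summed signal was 744 to 1053 in parts 1 to 3 and 1886 and 2204 in part 6. Lmx1a, which defines the roof plate, the dorsal midline itself, was not above the median of its array on any array. Pax3, a dorsal progenitor factor, averaged 256 in part 1 and 1012 in part 6, the largest share of that sum in part 6. Of the 6 that did not pass, Bmp4 (-0.28 ± 0.10), Atoh1 (-0.15 ± 0.070) and Pax7 (-0.09 ± 0.17), named after their values were seen, had slopes below 0. What part the share of dorsal tissue has in the Wnt1 values was not tested.

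Wnt4 was highest in part 6 without passing a test. The probe set that represents it read 23.1 and 4.93 in part 1, 12.5 and 24.6 in part 2, 15.9 and 7.63 in part 3, 10.4 and 13.2 in part 4, 25.3 and 17.1 in part 5, and 41.6 and 35.1 in part 6. Its second set read 65.0 and 64.3 in part 6 and 28.4 and 23.3 in part 5. It was at 1.04 to 14.4 in parts 2 to 4 and far apart in part 1, at 49.5 and 2.40. In both sets the 2 arrays of part 6 lay above the other 10. The slopes were 0.22 ± 0.088 (adjusted p = 0.130) and 0.41 ± 0.19 log2 per part (adjusted p = 0.216 where every probe set was tested). Without replicate 1 of part 1, the array with the high value, the slope of the representing set passed (0.31, adjusted p = 0.0412). It passed also over parts 3 to 6 alone (0.50, adjusted p = 0.0256).

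The probe sets of Wnt7a disagreed with one another. The brightest read 27.1 and 35.2 in part 1, 11.3 and 3.01 in part 2, and 26.0 and 40.7 in part 6, with no trend (0.10 ± 0.11 log2 per part, adjusted p = 0.632). The second was at 0.64 to 14.1 in parts 1 to 4, at 7.96 and 20.1 in part 5, and part 6 read 21.2 and 31.2, above all other arrays. Its slope of 0.36 ± 0.12 did not pass where every probe set was tested (adjusted p = 0.0944). With the log2 values of both sets averaged, the slope of Wnt7a passed (0.23, adjusted p = 0.0485), so that this ligand's call depends on how probe sets are joined. The second set passed the filter through 3 arrays only, all in parts 5 and 6, where it was high. Its entry thus favoured a difference. The remaining Wnt7a set never exceeded the median of its array.

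**Figure D4:**
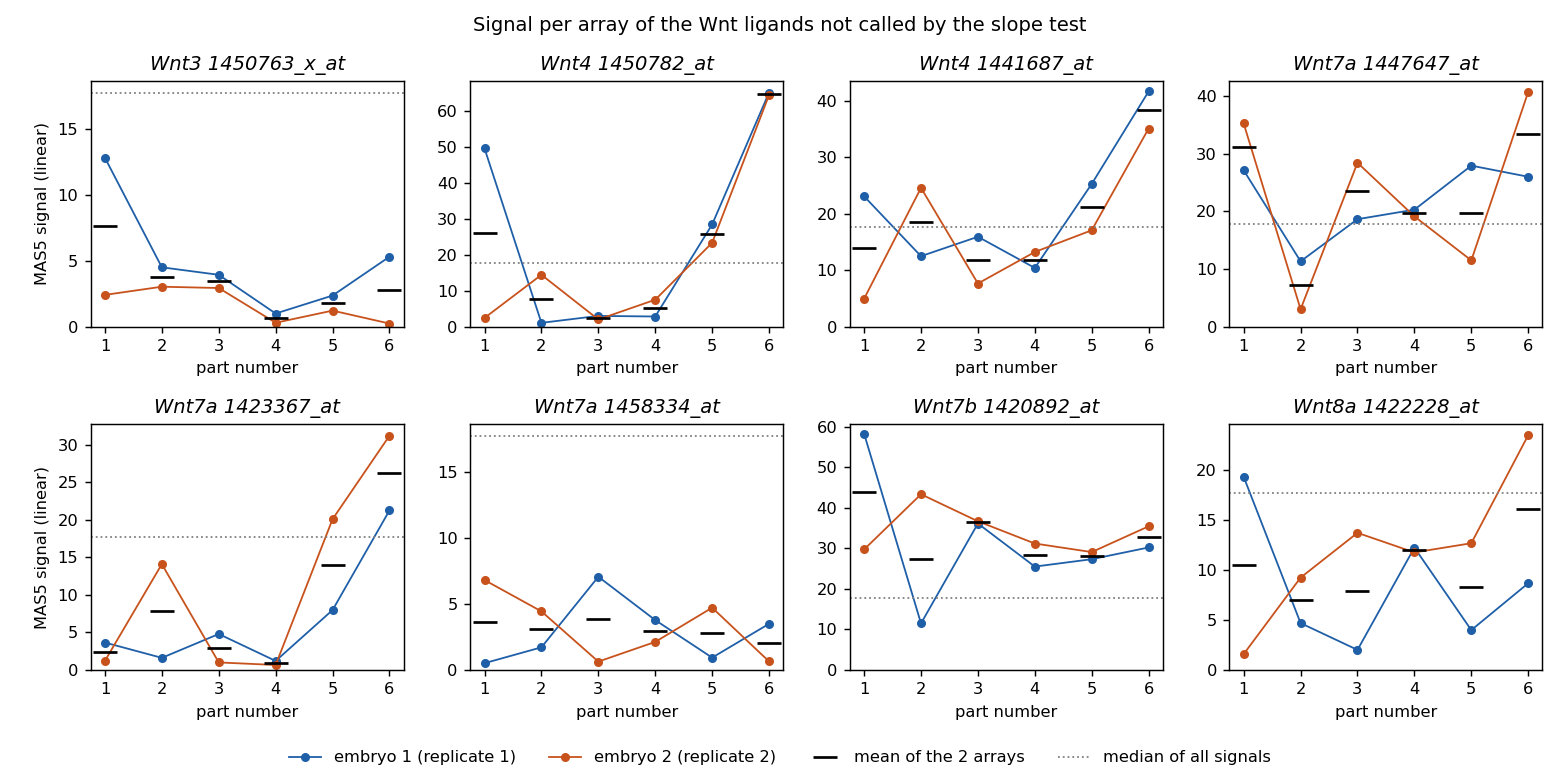
MAS5 signal (linear) by part number for probe sets of the 5 Wnt ligands not called by the slope test; points and lines are the 2 embryos, black bars the mean of the 2 arrays and the dotted line the median of all signals, 17.7. The axes differ between panels. Both Wnt4 sets and the second Wnt7a set are highest in part 6, Wnt7b has its lowest and highest arrays in parts 1 and 2, and Wnt3 lies below the dotted line.

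Wnt7b showed no course beyond the spread of its arrays. Its brighter set had a lowest signal of 11.4, a median of 30.7 and a highest of 58.3 over the 12 arrays, the extremes lying in parts 2 and 1 of the same embryo, and parts 3 to 6 stayed between 25.5 and 36.7. The slope was -0.03 ± 0.074 log2 per part (adjusted p = 0.824). The second Wnt7b set did not exceed the median of its array on any array.

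Wnt8a and Wnt3 were near or below background. Wnt8a read between 1.57 and 23.5, with a median of 10.5, and exceeded the median of its array on 2 arrays, replicate 1 of part 1 (19.3) and replicate 2 of part 6 (23.5), through which alone it entered the test. Its slope was 0.12 ± 0.11 log2 per part (adjusted p = 0.507). The single set for Wnt3, also marked _x_at, read 12.8 and 2.40 in part 1 and 0.23 to 5.29 elsewhere, and never exceeded the median of its array. At this signal no difference of either gene between pieces was detectable.

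The 2 embryos were compared as to the course of each ligand. The 5 called ligands had like slopes in embryo 1 and embryo 2. These were 0.60 and 0.54 log2 per part for Wnt1, -0.44 and -0.55 for Wnt3a, -0.40 and -0.43 for Wnt5a, -0.79 and -0.80 for Wnt5b, and -0.25 and -0.29 for Wnt6. limma's test of the slope difference between embryos called 0 of 9 ligands and 0% of all genes. At an unadjusted threshold of 0.05 it picked 1 ligand, Wnt8a, and 6.61% of all genes. The slope of Wnt8a was -0.09 in embryo 1 and 0.34 in embryo 2, both at signals near background.

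No other Wnt ligand was called from all 12 arrays. Of 9 further ligands 6 were bright enough to be tested, and none passed the slope test or the F test at the adjusted threshold. Wnt10a came nearest, at 55.4 ± 5.92 in part 1, 21.7 ± 12.3 in part 2 and 2.82 to 11 in the later pieces, with a slope of -0.44 ± 0.15 log2 per part (adjusted p = 0.0708). It passed without replicate 2 of part 5 (adjusted p = 0.0491), without replicate 2 of part 6 (0.0295) and with an offset equal to the median signal (0.0356), and Wnt9a passed without both arrays of part 6 (0.0420). Wnt11, Wnt9a and Wnt8b had slopes of -0.10 ± 0.047, -0.12 ± 0.11 and -0.06 ± 0.055.

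Of 8 tested genes for lipid attachment, secretion and release of Wnt proteins, 1 rose and 1 fell by slope, and none by the F test. Over all genes 5.64% rose and 7.05% fell, so that these counts are near the background, against which the counts of the further lists are to be read too. Porcn, the enzyme that lipidates Wnt proteins, rose (0.25 ± 0.056 log2 per part, adjusted p = 0.00902), from 34.8 ± 20.7 in part 1 to 77.7 ± 17.6 in part 6. Notum, which removes that lipid outside the cell, fell (-0.38 ± 0.10, adjusted p = 0.0283), from 58.3 ± 11.6 to 21.3 ± 13. Removing any 1 of 5 arrays ended the Notum call, with an adjusted p of up to 0.0858, as did an offset of 1 (0.0569). The carrier Wls, named after its values were seen, had a slope of -0.06 ± 0.034. Atp6ap2 and Snx3, which act in receptor complexes and in endosomal sorting, had slopes of -0.07 ± 0.023 and -0.07 ± 0.030 and did not pass, although Atp6ap2 did with the filter at the 75th percentile (adjusted p = 0.0472) and with its probe sets averaged (0.0488).

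Receptors moved in both directions. Of 15 tested receptors and co-receptors 7 rose and 3 fell by slope, with a median slope of 0.06. Fzd7 rose from 64.5 ± 33.4 in part 1 to 512 ± 71.8 in part 6 (0.54 ± 0.091 log2 per part, adjusted p = 0.00150). Fzd8 rose by 0.42 ± 0.047 and Fzd3 by 0.18 ± 0.023, although 1 of 4 dimmer Fzd3 sets had a slope of -0.02. Ror2, a receptor through which Wnt5a signals, rose from 127 ± 42.1 to 458 ± 111 (0.32 ± 0.060, adjusted p = 0.00341), the direction opposite to Wnt5a itself. The other 3 that rose were Ror1 (0.35 ± 0.071), Fzd9 (0.28 ± 0.060) and Fzd2 (0.30 ± 0.068). These and the 3 that fell were named after their values were seen. Those that fell were Ptk7 (-0.43 ± 0.10), Ryk (-0.12 ± 0.028, and 0.04 for a dimmer set) and Fzd5 (-0.15 ± 0.040). Fzd5 was near background, with a highest mean of 20.9, in part 2. It entered the test through arrays of the first 2 pieces, which favoured a fall. Ror1 was under the median of all signals in parts 1 to 3, at means of 5.83, 12.4 and 15.3.

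Among R-spondins, secreted proteins that strengthen Wnt signals, and their receptors, 2 of 5 tested genes rose and 1 fell. Rspo3 started at a mean of 2611 ± 42.7, was at 1529 ± 118 in part 2 and 332 ± 17.5 in part 3, and ended at 108 ± 32.2 (-0.97 ± 0.092 log2 per part, adjusted p = 1.85e-05). It is also held by the presomitic mesoderm list. Its receptor Lgr4 rose from 54.6 ± 16.5 to 259 ± 30.4 (0.39 ± 0.040), and Znrf3, a ligase that removes Frizzled receptors, by 0.10 ± 0.030. Removing any 1 of 10 arrays ended the Znrf3 call. Lgr5 had a slope of 0.13 ± 0.062 and did not pass.

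Of 9 tested secreted antagonists 2 rose and 1 fell. Dkk2, which blocks the co-receptors Lrp5 and Lrp6, fell from 41.9 ± 6.59 in part 1 to 1.62 ± 0.406 in part 6 (-0.59 ± 0.069, adjusted p = 9.53e-05). The Frizzled-related proteins Sfrp2 and Sfrp1, which bind Wnt proteins, rose by 0.29 ± 0.058 and 0.18 ± 0.047, the latter not without either of 2 arrays. Dkk1 averaged 184 ± 140 in part 1 and 26.9 ± 4.01 in part 6, and did not pass (-0.42 ± 0.15, adjusted p = 0.0937), except without replicate 2 of part 2 (-0.52, adjusted p = 0.0174).

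Downstream of the receptors most relay genes did not pass. Of 15 tested genes of the beta-catenin relay 3 rose and 1 fell, and Ctnnb1, which encodes beta-catenin, had a slope of 0.00 ± 0.026. Its DNA-binding partners parted. Lef1 fell (-0.27 ± 0.073, adjusted p = 0.0256), while Tcf7l1 (0.34 ± 0.064) and Tcf7l2 (0.24 ± 0.056) rose, as did the adaptor Dvl1 (0.10 ± 0.028, adjusted p = 0.0361). Removing any 1 of 6 arrays ended the Dvl1 call, and any 1 of 3 that of Lef1. Of 14 tested target and feedback genes 7 fell and 1 rose, with a median slope of -0.32. Of these 8, Lef1, Notum and the riser Znrf3 stand in the lists above as well, Cdx2 and Sp5 in the caudal growth zone list and Cdx1 in the gut endoderm list. Cdx1 was near background, at means of 16.7 in part 1 and 15.9 in part 2. It entered the test through 2 arrays of these pieces, which favoured a fall. Smallest in p were the membrane inhibitor Apcdd1 (-0.35 ± 0.035), the caudal homeobox genes Cdx4 (-0.48 ± 0.056) and Cdx2 (-0.48 ± 0.066) and the transcription factor Sp5 (-0.38 ± 0.066). Axin2, a feedback inhibitor widely read as a beta-catenin target, had a slope of -0.12 ± 0.051 and did not pass (adjusted p = 0.148, named after its value was seen). Of 11 planar polarity genes 4 rose and 1 fell. Celsr2, Vangl1 and Vangl2, core membrane components, rose by 0.26 ± 0.035, 0.24 ± 0.033 and 0.22 ± 0.059, Celsr1 by 0.21 ± 0.056, and Prickle2 fell (-0.25 ± 0.054). A dimmer Vangl2 set had a slope of -0.02, and the Vangl2 call ended on removing any 1 of 4 arrays (adjusted p up to 0.0943) and with its probe sets averaged (0.0790). Fits without whole pieces were followed for the up to 4 genes with the smallest slope p of each pathway list. Without both arrays of part 1 the calls of Vangl2, Ror2, Prickle2, Tcf7l2, Sfrp2, Sfrp1, Lef1, Notum, Znrf3 and Dvl1 were lost. Without both of part 6 those of Porcn, Tcf7l2, Vangl2, Znrf3 and Dvl1 were lost.

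**Figure D5:**
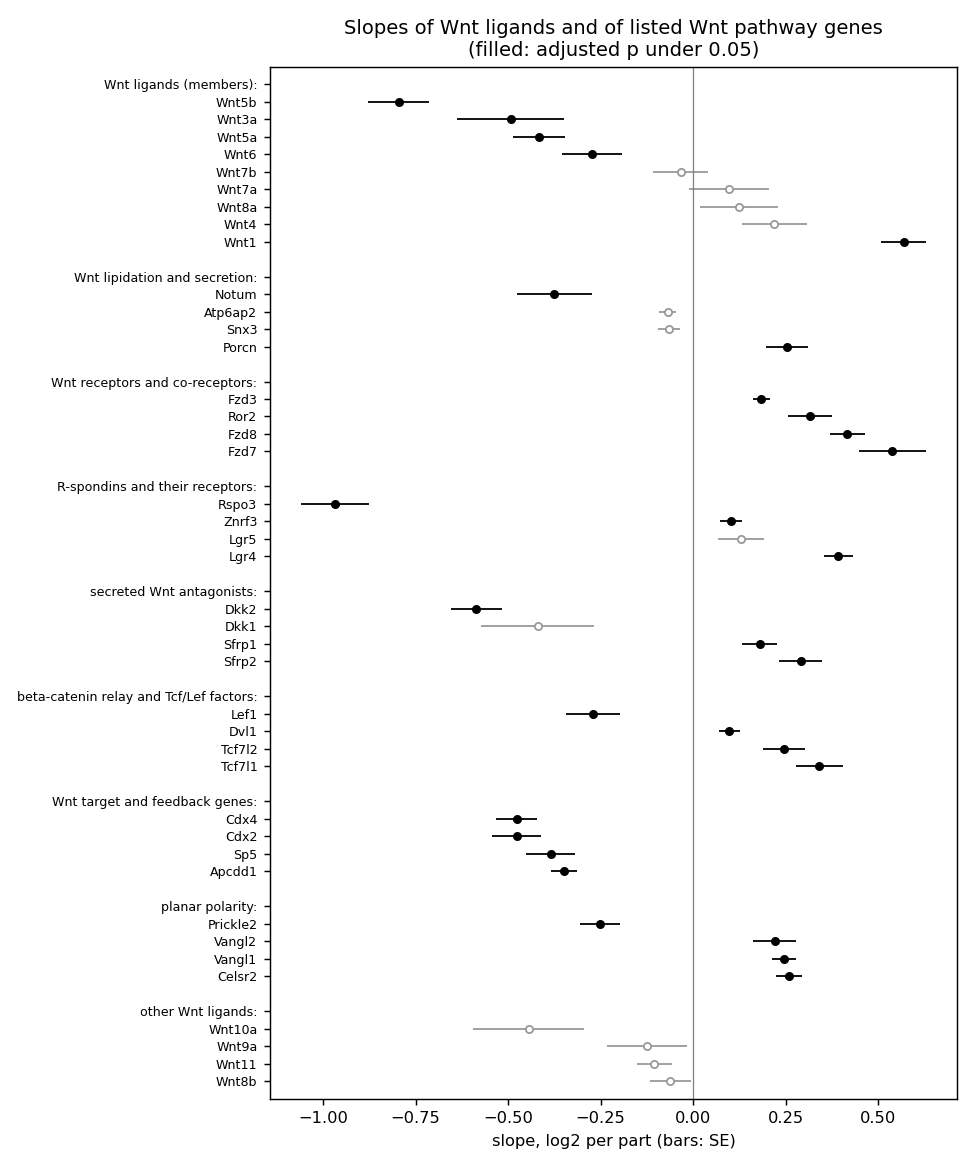
Slope along the part number (log2 per part, bars are SE, 12 arrays) of the 9 tested Wnt ligands and of up to 4 genes from each pathway list, those with the smallest p; filled points passed at an adjusted p of 0.05. Ligands lie on both sides of 0, from Wnt5b at -0.80 to Wnt1 at 0.57, the receptors drawn lie above 0 and the targets under 0.

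For each called ligand the tested genes with the most similar log2 values over the 12 arrays were sought by Pearson correlation. This is a description, since the arrays come from 2 embryos and share the trend along the tube. Wnt5b was most like Cd40, a receptor of the tumour necrosis factor family, and Smim10l2a (0.989 each), which averaged 364 and 257 in part 1 and 13.9 and 28.6 in part 6. Wnt5a was most like Mcur1, a mitochondrial calcium regulator (0.980), and Greb1 (0.977), a gene of the caudal growth zone list. Wnt1 was most like Zadh2 (0.968) and Nkx6-1 (0.966), a factor of ventral progenitors, and thus of the opposite side of the tube from Wnt1. Wnt3a was most like Gnal (0.934) and Mbnl3 (0.933), and Wnt6 like the desmosomal cadherin Dsc2 (0.912) and Tmem114 (0.903). Among the ligands themselves Wnt3a correlated at 0.865 with Wnt5b and at 0.345 with Wnt5a, and Wnt5a and Wnt5b at 0.679.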

How the data were processed

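The authors deposited MAS5 intensities per probe set, per the submitters' processing notes; its version and settings were not given in the sources used here. RNA was amplified in 2 rounds before labelling, per the labels' protocols, which favours 3′ ends. The mean without the highest and lowest 2% was 100 on every array, and the array medians were 16.7 to 19.1. With 2 arrays per piece, their number limits the precision. Control sets (64) were left out. Of the rest, 34945 named 1 gene, 932 several and 9160 none, and symbols were updated by Entrez identifier for 34741. A set was kept when above its array's median on at least 2 arrays (21679), and the kept set with the highest mean log2 represented its gene.

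Fits used limma 3.58.1 in R 4.3.3 with Benjamini-Hochberg adjustment over 12089 genes and a threshold of 0.05; every adjusted p is from limma. One model held the part number, one the 6 pieces, one the squared part number, and one the part number by embryo. The code was tested on simulated data. The members and gene lists were chosen with earlier results of these data known. Named were all members, up to 4 genes with the smallest slope p per pathway list, and the 2 most alike genes per called member. The design text names 2 embryos, and same-numbered arrays deviated together in all 15 pairs of pieces (correlation 0.175 to 0.325, median 0.226), so the numbers were taken to mark the embryo; the p-values rest on 2 embryos. Alternatives concerned the offset, filter, scaling, probe set choice, replicate block and arrays left out.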

Additional observations from a re-analysis of the deposited data

How the results depend on the processing

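With the replicate block the counts of called ligands were as in the fits without it, 1 higher and 4 lower by slope, 4 by the F test, 1 higher and 3 lower between the ends, 1 step, and 1 negative and 2 positive curvatures, and no ligand's call changed. Leaving out 1 array gave 1 to 2 ligands higher and 2 to 4 lower by slope, 3 to 4 by the F test, 1 to 2 higher and 2 to 3 lower between the ends, 0 to 1 steps, and 1 to 3 positive curvatures. Ligands lower by slope numbered 2 with an offset of 1, with no filter, with every probe set tested and without both arrays of part 1, against 4. Ligands higher by slope and between the ends numbered 0 with the filter at the 75th percentile, which removed Wnt1, and 2 with a gene's probe sets averaged, against 1. Steps numbered 2 with an offset equal to the median signal, with that filter and with averaged sets, against 1. Positive curvatures numbered 1 with no filter, and both kinds 0 without both arrays of part 1 or of part 6. Over parts 3 to 6 alone 2 ligands were higher and 2 lower by slope, and the slope of Wnt3a turned to 0.22 (adjusted p = 0.584); the cause was not tested. The calls of Wnt1, Wnt5a and Wnt5b by slope held in all settings that tested them. Over all genes the slope test called 1534, and 896 without both arrays of part 1, 974 without both of part 6 and 440 over parts 3 to 6, where fewer arrays entered. The F test called 591, and 336 to 558 with 1 array left out. The ends differed for 1088 genes, and for 483 to 1290. Curvature was called for 176, for 114 with no filter, for 4 and 34 without both arrays of part 1 and of part 6, and for 102 to 193 with 1 array left out. Scaling the arrays to 1 median moved the median slope of all genes from -0.01 to 0.01. Signals near or under the median of their array, as for Wnt3, Wnt8a and the early pieces of Wnt1, carry no order.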
